A study of Mus musculus with 28 samples.

Results

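RNA of extracellular vesicles (EVs) in mouse blood was compared between mature adult mice of 12 and 18 months and young adults of 2 months. The comparison took every EV-enriched library with those ages in the labels and no other, which gave 7 of the 28 libraries of the series. There were 3 libraries at 2 months, 2 at 12 months and 2 at 18 months, and the 4 libraries of 12 and 18 months formed 1 group. All animals were wildtype female C57BL/6N mice, untreated apart from the ketamine and xylazine anaesthesia under which blood was drawn from the vena cava. The blood of each mouse was kept separate, platelets, large vesicles and debris were spun out, and the ultracentrifuge pellet was taken as the EV-enriched fraction. The mice weighed 19 to 20 g at 2 months, 31 g at 12 months and 34 to 41 g at 18 months, so age and body weight cannot be told apart here. The other 7 EV libraries, from mice of 6 and 8 months, and the 7 EV-depleted plasma libraries of 2, 12 and 18 months were used only for the comparisons named below.

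EVs are small membrane-bound particles that cells of most organs release into blood. They carry proteins and short RNAs, among them microRNAs (miRNAs), which pair through bases 2 to 8 of their 5′ end, the seed, with target messenger RNAs. They also carry transfer RNAs (tRNAs) and their fragments, ribosomal RNA (rRNA), the small nuclear RNAs (snRNAs) of the spliceosome, small nucleolar RNAs (snoRNAs), which guide modification of rRNA, and Y and vault RNAs. A bulk pellet holds vesicles of many cell types, so more vesicles of one origin and more of an RNA in each vesicle cannot be told apart in any value given here.

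The mature sequences of the miRNAs that the results below turn on are shown first, from RefSeq for GRCm38.p6, with the seed in capitals. The 3 miR-29 members share a seed and come from 2 loci. Mir29a (hairpin chr6:31062660-31062747, minus strand) lies beside Mir29b-1 (chr6:31063023-31063093), and Mir29c (chr1:195037547-195037634, plus strand) lies beside Mir29b-2 (chr1:195037040-195037120).
miR-29a-3p: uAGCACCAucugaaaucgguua
miR-29b-3p: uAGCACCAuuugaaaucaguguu
miR-29c-3p: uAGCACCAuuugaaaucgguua
The pair miR-146a-5p (Mir146, chr11:43374397-43374461, minus strand) and miR-146b-5p (chr19:46342762-46342870, plus strand) shares a seed as well, although the genes lie on different chromosomes.
miR-146a-5p: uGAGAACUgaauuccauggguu
miR-146b-5p: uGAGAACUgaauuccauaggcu
So does the pair miR-192-5p (chr19:6264844-6264932, plus strand) and miR-215-5p (chr1:185313581-185313692, plus strand), whose first base differs.
miR-192-5p: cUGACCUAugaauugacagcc
miR-215-5p: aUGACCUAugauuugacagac
Then follow miR-21a-5p (chr11:86584067-86584158, minus strand) and miR-223-3p (chrX:96242817-96242926, plus strand), both tied to inflammation. Last are miR-296-5p, which was lower in the older mice, and miR-451a, the red cell miRNA that shows how far the libraries differed within an age.
miR-21a-5p: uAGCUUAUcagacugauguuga
miR-223-3p: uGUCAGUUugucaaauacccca
miR-296-5p: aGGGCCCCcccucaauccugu
miR-451a: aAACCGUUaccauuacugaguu

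The 7 libraries held 9894179 to 52753818 estimated counts, of which 40690 to 203624 fell on miRNAs. Replicate 2 of 12 months, replicate 2 of 18 months and replicate 3 of 2 months held 27444646 counts or more and the other 4 at most 16228529, so both groups held large and small libraries. Replicate 2 of 12 months stood apart with the most counts and the lowest TMM scaling factor, 0.472 against up to 1.95. Reads that match several copies of a gene appear to have been counted at each copy. The summed counts were 1.61 to 3.81 times the divisor behind the RPM values, and what that divisor counts is not given. Of 80668 RNAs listed, 13060 reached 1 RPM (a read count scaled to library depth) in at least 3 libraries and were tested with edgeR. They comprised 6517 circRNAs, 4662 lncRNAs, 532 piRNAs, 407 tRNAs, 267 miRNAs, 236 snRNAs, 173 rRNAs, 162 snoRNAs, 94 miscellaneous RNAs and 10 small Cajal body RNAs (scaRNAs). Because of gene copies, they held 12680 distinct count profiles.

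No RNA passed the test between 12–18 months and 2 months after adjustment for all RNAs tested. In edgeR's quasi-likelihood test, 0 of 13060 RNAs (0.0%) had a Benjamini-Hochberg adjusted p under 0.05, and the smallest was 0.884. At an unadjusted p under 0.05 there were 726 RNAs (5.56%), 478 of them higher (3.66%) and 248 lower (1.9%) at 12–18 months. DESeq2 gave 685 RNAs at that unadjusted p and called 1, the lncRNA A330087D11Rik. With the number in the column titles as a replicate block, chosen after seeing the data, edgeR called 2, both lower at 12–18 months (A330087D11Rik, -4.85, and 4833422M21Rik, -3.18, adjusted p = 0.0495 for both). In that fit replicate 2 of 12 months and replicate 2 of 2 months each had a title number of their own. They thus added nothing to its age difference. Replicate 2 of 2 months had the lowest A330087D11Rik level of the 7 libraries, 0.812 RPM. In RPM, the 4 older libraries all lay above the 3 young ones for 410 RNAs (3.14%) and all below for 108 (0.827%). The values below are therefore descriptions of RNAs and groups, each with its standard error. None of the single RNAs passed the adjusted threshold in edgeR with the filter, TMM over all RNAs tested and no block. Fits with total count scaling or without a filter did call some of them, as given in the closing sections. A log2 difference is always the level at 12–18 months minus that at 2 months, from edgeR with TMM scaling over all RNAs tested unless another scaling is named.

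With every gene copy counted, most counts in EVs fell on tRNA and rRNA. The tRNA share of counts was 41.7%, 24.9% and 34.3% at 2 months, 45.7% and 40.0% at 12 months, and 51.4% and 40.7% at 18 months. Its mean was 44.4% ± 5.29 (SD, n = 4) against 33.6% ± 8.42 (SD, n = 3), and the groups overlapped through replicate 1 of 2 months. The rRNA share was 33.7% ± 10.9 against 42.1% ± 10.1, and within each age the larger library had more of it at 12 and 18 months. The snRNA share was 3.45% ± 1.01 at 12–18 months and 2.24% ± 0.312 at 2 months. miRNAs took 0.465% ± 0.128 and 0.389% ± 0.0363 of the counts. In an exact two-sided permutation test over all 35 assignments of the ages to the libraries, which can reach p = 0.0286 at the smallest, p was 0.114 for tRNA and for snRNA, 0.314 for rRNA and 0.457 for miRNA. The adjusted p over the 10 classes lay between 0.490 and 0.743, and no class had shares without overlap. Copies with identical counts weigh on these shares. Counted once, a choice made after seeing the data, they left mean shares at 12–18 and 2 months of 29.0% and 20.0% for tRNA, 28.0% and 32.7% for rRNA, 16.8% and 19.7% for circRNA and 0.994% and 0.819% for miRNA. The tRNA share was then 23.2%, 12.7% and 24.1% at 2 months, 27.2% and 30.3% at 12 months, and 29.6% and 29.0% at 18 months. These groups did not overlap, and the exact permutation p for tRNA was 0.0286, the smallest possible (adjusted p = 0.286 over the 10 classes). Within the 4 smaller libraries the same direction was seen, with 48.5% against 33.3% for tRNA, 24.3% against 38.7% for rRNA and 4.18% against 2.24% for snRNA. The miscellaneous RNAs, at 0.421% and 0.393%, had the lower share at 12–18 months in those 4 libraries and in other alternatives.

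**Figure D1:**
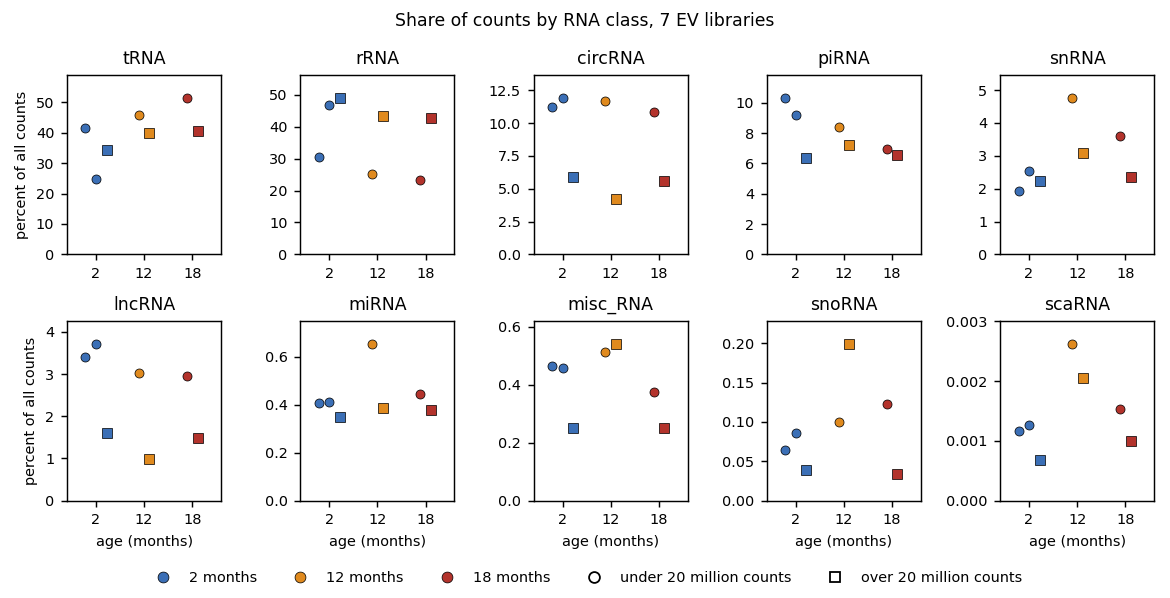
Share of the counts of each library taken by the RNA classes (percent, every gene copy counted), with 1 point per EV library at 2, 12 and 18 months. The tRNA and snRNA points lie higher on average at 12–18 months (44.4% and 3.45%) than at 2 months (33.6% and 2.24%), with overlap in both.

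Relative to all RNAs tested, whose median log2 difference was -0.00, the small RNA classes lay higher in EVs of older mice, while circRNAs and lncRNAs were centred near 0. Among miRNAs 74 of 267 were higher and 3 lower at an unadjusted p under 0.05 (28.8%), and the median log2 difference was 0.71. For tRNAs the numbers were 78 higher and 1 lower of 407 (19.4%), median 0.76, and 57 of the higher ones had distinct counts. Of 236 snRNAs 36 were higher and 1 lower (15.7%), median 0.59. Each of these shares is above the 5.56% over all RNAs. Of 162 snoRNAs 50 were higher and 1 lower (31.5%), median 1.63, and of 10 scaRNAs 7 were higher, median 1.48. Miscellaneous RNAs (20 higher and 2 lower of 94, median 0.38), piRNAs (15 and 10 of 532, median 0.09) and rRNAs (1 and 0 of 173, median 0.17) followed. The circRNAs gave 118 higher and 104 lower (3.41%), median -0.05, and the lncRNAs 79 and 126 (4.40%), median -0.04. These 2 classes are most of the rows, so they set the TMM scale. With TMM over miRNAs alone the median of all RNAs moved to -0.44, and the medians became 0.16 for miRNAs, 0.28 for tRNAs, 0.15 for snRNAs and 0.90 for snoRNAs, while miscellaneous RNAs, piRNAs and rRNAs turned to -0.20, -0.41 and -0.51. That scaling gave 102 RNAs higher and 493 lower at an unadjusted p under 0.05, so the split of directions over all RNAs depends on the scale. Without replicate 2 of 12 months the median was 0.33 for snoRNAs, 0.35 for miRNAs, 0.36 for snRNAs, 0.81 for scaRNAs, 0.05 for miscellaneous RNAs, -0.11 for piRNAs, -0.48 for rRNAs and 0.57 for tRNAs. Leaving out replicate 3 of 2 months gave 0.95 for snRNAs, and the medians of piRNAs and rRNAs ranged from -0.11 to 0.4 and from -0.48 to 0.85 with any 1 library left out.

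**Figure D2:**
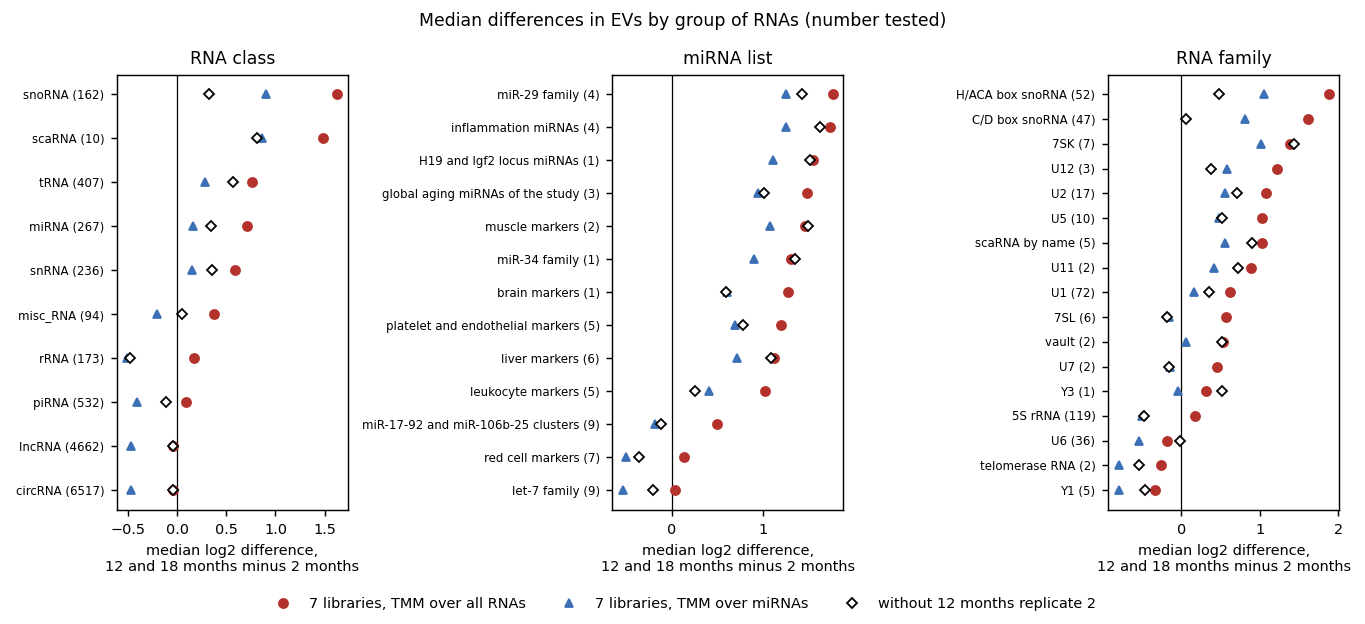
Median log2 difference (12–18 months minus 2 months) of RNA classes, miRNA lists and RNA families under TMM over all RNAs, TMM over miRNAs alone, and without replicate 2 of 12 months. miR-29, inflammation and 7SK groups lie above 1 under all 3, whereas snoRNA medians drop without that library (from 1.63 to 0.33).

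The miR-29 family, whose known targets include collagens and other matrix proteins, had a summed level of 81.9, 80.1 and 208 RPM at 2 months, 407 and 505 RPM at 12 months, and 249 and 370 RPM at 18 months, above all young mice in every older one. miR-29b-3p measured 23.3, 17.8 and 46.0 RPM at 2 months, 126 and 122 RPM at 12 months, and 75.4 and 115 RPM at 18 months, with a log2 difference of 1.93 (SE 0.43). The lowest older library was above the highest young one. miR-29c-3p was at 14.9, 16.9 and 36.7 RPM at 2 months, at 92.4 and 89.4 RPM at 12 months, and at 61.5 and 80.4 RPM at 18 months, a log2 difference of 1.81 (SE 0.43). For miR-29a-3p, the most abundant member, the values were 42.9, 44.8 and 123 RPM, then 185 and 289 RPM, then 112 and 171 RPM, so 1 older library lay below the highest young one (log2 difference 1.48, SE 0.56). In edgeR's test the unadjusted p was 0.00139 for miR-29b-3p and 0.00198 for miR-29c-3p, with an adjusted p of 0.884 for all 3. Of 7 listed arms of the family 4 passed the filter on low values, and all 4 were higher at an unadjusted p under 0.05. Their median was 1.77, and it was 1.43 without replicate 2 of 12 months. In the alternatives tried, the log2 difference ranged from 1.43 to 2.37 for miR-29b-3p and from 1.33 to 2.25 for miR-29c-3p. The study chose miR-29a-3p and miR-29c-3p as aging miRNAs in organs of other mice and then looked at miR-29c-3p in the present libraries. The family was listed with earlier results of these data known, so its direction is not independent evidence.

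The inflammation list was also higher in each older library, with a summed level of 253 to 505 RPM in young and 601 to 1330 RPM in older mice. It held miR-146a-5p and miR-146b-5p, which dampen innate immune signalling, miR-21a-5p, miR-155-5p and miR-223-3p, a miRNA of neutrophils and other myeloid cells. Of 5 members 4 passed the filter, and all 4 had a higher level in each older library than in any young one. miR-146a-5p was at 13.0, 11.5 and 30.1 RPM at 2 months, 47.1 and 61.4 RPM at 12 months, and 44.3 and 103 RPM at 18 months (log2 difference 1.89, SE 0.54). miR-21a-5p was at 249, 203 and 384 RPM, then 721 and 716 RPM, then 451 and 990 RPM (1.40, SE 0.48). miR-223-3p was at 30.7, 35.7 and 84.2 RPM, then 152 and 175 RPM, then 96.7 and 218 RPM (1.71, SE 0.53). In all 3 the third young library, a large one, was the highest of its group. miR-146b-5p was less abundant, at 1.95 to 5.41 RPM in the young and 7.79 to 18.0 RPM in the older libraries (1.77, SE 0.47). miR-155-5p stayed at or under 1.01 RPM in every library and was not tested. The list's median log2 difference was 1.74, and it was 1.25 with TMM over miRNAs.

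**Figure D3:**
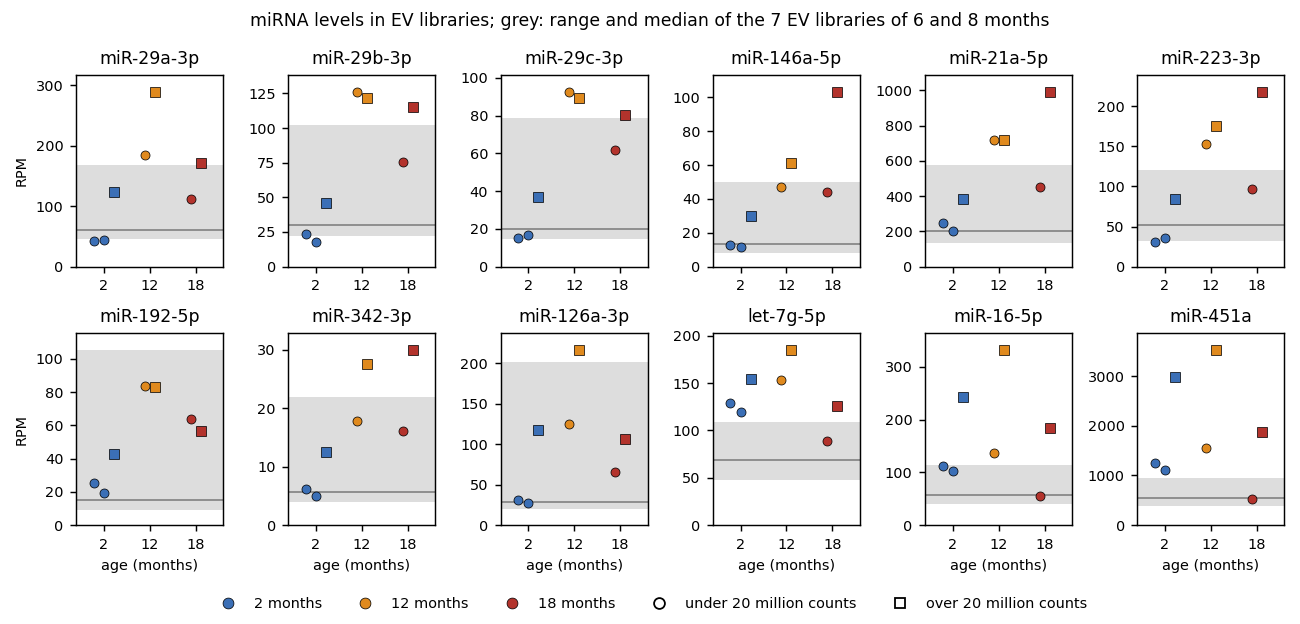
RPM of 12 miRNAs in each EV library at 2, 12 and 18 months, with the range and median of the 7 EV libraries of 6 and 8 months in grey. miR-29b-3p, miR-29c-3p and the inflammation miRNAs have older points above all young points, while those of miR-451a span 529 to 3515 RPM within 12–18 months.

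Lists of tissue miRNAs were compared next, and the source of the RNA in the pellets was not tested. All 6 liver markers passed the filter and had a log2 difference above 0 (median 1.12), 4 of them at an unadjusted p under 0.05. Over all miRNAs the share at that p was 28.8%. miR-192-5p was at 25.3, 19.3 and 42.9 RPM at 2 months, at 83.9 and 83.0 RPM at 12 months, and at 63.6 and 56.8 RPM at 18 months (1.29, SE 0.36). miR-122-5p, the dominant miRNA of hepatocytes, was at 52.6, 16.2 and 17.4 RPM, then 37.9 and 28.3 RPM, then 98.5 and 51.9 RPM, so its groups overlapped (0.95, SE 0.52). In the liver list the groups were thus apart for miR-192-5p and miR-194-5p but not for miR-122-5p. Of 6 muscle markers only 2 passed, at low levels, with miR-1a-3p between 0.398 and 2.82 RPM in young and 3.47 and 5.87 RPM in older libraries (1.59, SE 0.56). The median of both was 1.46, and 2.37 without replicate 3 of 2 months. The 3 skeletal and cardiac miRNAs miR-206-3p, miR-208a-3p and miR-499-5p, all on the list, were under 2 RPM everywhere. Of 6 brain markers only miR-128-3p passed (3.65 to 4.53 RPM against 5.76 to 16.3 RPM, 1.27, or 0.59 without replicate 2 of 12 months), while miR-124-3p, which defines neurons, never exceeded 0.353 RPM.

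Red cell markers varied widely between libraries of one age. The summed level of the 7 red cell miRNAs was 1694 to 3847 RPM at 2 months and 867 to 4669 RPM at 12–18 months, and 0 of the 7 had an unadjusted p under 0.05 (median 0.14, and between -0.35 and 0.37 with 1 library left out). miR-451a alone was at 1252, 1115 and 2977 RPM, then 1554 and 3515 RPM, then 529 and 1870 RPM (0.19, SE 0.73). In each age the library with the most counts had the most miR-451a. The part of red cell RNA in the other differences was not tested. Of 5 platelet and endothelial miRNAs, 2 had groups without overlap (miR-24-3p and miR-223-3p), and the median was 1.2 (0.78 without replicate 2 of 12 months). miR-126a-3p overlapped at 26.8 to 117 RPM and 66.1 to 216 RPM. miR-199a-3p was slightly lower in the older group, at 5.68 to 21.7 RPM in young and 9.01 to 12.3 RPM in older libraries (-0.14, SE 0.43). Of 6 leukocyte miRNAs 5 passed the filter with a median of 1.02, which was 0.26 without replicate 2 of 12 months. miR-342-3p had 5.03 to 12.5 RPM against 16.1 to 29.9 RPM (1.61, SE 0.49), whereas miR-150-5p, a lymphocyte miRNA, overlapped at 38.5 to 79.5 RPM and 59.0 to 196 RPM. The platelet and inflammation lists share miR-223-3p.

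Other miRNA families gave few such differences or were too low to test. All 9 let-7 miRNAs passed the filter and none reached an unadjusted p under 0.05 (median 0.04, between -0.21 and 0.23 with 1 library left out, range of members -0.27 to 0.60). let-7b-5p was at 44.7 to 51.5 RPM in young and 57.7 to 83.5 RPM in older libraries (0.48, SE 0.28), without overlap, and let-7a-5p was at 54.5 to 69.0 and 48.2 to 78.1 RPM. The 9 miRNAs of the proliferation-linked miR-17-92 and miR-106b-25 clusters gave 0 at that p and a median of 0.50, which turned to -0.11 without replicate 2 of 12 months, was 0.26 without replicate 1 of 2 months and turned to -0.18 with TMM over miRNAs. miR-34a-5p, a p53 target, was at 0.498 to 1.53 RPM and 1.66 to 2.86 RPM (1.31, SE 0.46). None of the 10 listed miRNAs of the imprinted Dlk1-Dio3 cluster reached the filter. Of the 4 from the H19 and Igf2 loci only miR-483-5p did, at 0.118 to 0.812 RPM and 0.515 to 2.92 RPM (1.55, SE 0.72). Of 8 miRNAs that the study named as aging across tissues 3 passed the filter, with a median of 1.48, and 2 of these are miR-29a-3p and miR-29c-3p.

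Seeds were compared for the 210 tested miRNAs found in the RefSeq table. Of these 210, 57 were higher and 3 lower at an unadjusted p under 0.05. Of 29 seeds held by at least 2 of them, 6 had every member higher at that p. None of the 3 lower miRNAs had 1 of the 29 seeds, so 0 could have members in both directions. The 6 are the seeds of miR-29a, b and c-3p (AGCACCA), of miR-146a and b-5p (GAGAACU), of miR-21a-5p and miR-21c (AGCUUAU), of miR-192-5p and miR-215-5p (UGACCUA), of the 5p arms of miR-24 (UGCCUAC) and of miR-141-3p and miR-200a-3p (AACACUG). Members of 1 seed often share most of their sequence, so reads could be split among them in counting and they are not separate evidence. The 57 higher miRNAs with a sequence had a median GC content of 45.5%, against 45.6% for all 210, and the same median length of 22 bases. The 3 lower miRNAs were miR-296-5p (-1.92), miR-455-3p and miR-494-3p. Their median level was 2.26 RPM, against 6.91 RPM for the higher ones.

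tRNA rows with glutamine and leucine anticodons had the largest median differences among the isotypes with more than 10 rows. Of 16 glutamine rows 14 were higher at an unadjusted p under 0.05 (8 of 10 distinct profiles), with a median of 1.80. tRNA-Gln-CTG-2-1 was at 2536, 2077 and 3929 RPM at 2 months, 4698 and 13576 RPM at 12 months, and 9624 and 9561 RPM at 18 months (1.81, SE 0.68). Every older library was above the young ones. Of 26 leucine rows 18 were higher (12 of 18 distinct, median 1.49), with tRNA-Leu-CAG-1-1 at 688, 486 and 742 RPM, then 1227 and 1852 RPM, then 1537 and 2717 RPM (1.60, SE 0.53). Alanine had 14 of 34 rows (41.2%, 10 of 23 distinct, median 1.01, or 0.46 without replicate 2 of 12 months) and cysteine 13 of 54 (24.1%, 9 of 22 distinct, median 0.69). Glycine, whose tRNA-Gly-GCC-2-1 was among the abundant rows at 3319 to 8717 RPM and 8764 to 11642 RPM, had 1 of 27 (median 0.60, or 0.34 without replicate 2 of 2 months and 0.40 without replicate 2 of 12 months). Glutamate, proline, serine, threonine, histidine, asparagine and aspartate had 0. Over all tRNA rows the share at that p, in either direction, was 19.4%, and over all RNAs it was 5.56%. The most abundant row, tRNA-Pro-TGG-2-1, overlapped widely at 10276 to 27819 RPM and 16073 to 30982 RPM (0.51, SE 0.72). The rows with the smallest p were tRNA-Val-CAC-7-1 (6.33 to 20.2 RPM against 26.0 to 80.8 RPM, 1.94, SE 0.53), tRNA-Cys-GCA-7-1 (64.6 to 127 RPM against 222 to 327 RPM, 1.41, SE 0.40) and tRNA-Ile-TAT-2-1 (51.2 to 105 RPM against 197 to 421 RPM, 1.76, SE 0.51). With any 1 library left out the glutamine median was 1.46 or more. The leucine median was 0.83 without replicate 2 of 18 months and 1.40 without replicate 2 of 12 months. With TMM over miRNAs the medians were 1.28 and 0.96. tRNA values count whole tRNAs and fragments alike.

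Among spliceosomal RNAs, rows of U1, which recognises the 5′ splice site, made up most snRNA signal. Their summed level was 15588, 21265 and 37433 RPM at 2 months, 41783 and 59202 RPM at 12 months, and 33828 and 37236 RPM at 18 months. All 72 tested U1 rows had a log2 difference above 0 (median 0.62, or 0.36 without replicate 2 of 12 months, 0.37 without replicate 1 and 1.01 without replicate 3 of 2 months) but 2 had an unadjusted p under 0.05, and the rows are near copies counted on the same reads. U2, which binds the branch point, gave 4 of 17 and a median of 1.08 (0.71 without replicate 2 of 12 months), with Gm24950 (chr11:101641748-101641938, plus strand, 100% identical to Rnu2-10) at 236, 183 and 460 RPM, then 534 and 842 RPM, then 538 and 495 RPM (1.09, SE 0.49). U5 gave 4 of 10 and a median of 1.03, which was 0.52 without replicate 2 of 12 months. The share at that p was 23.5% for U2 and 40% for U5, against 15.7% over all snRNA rows. U6 rows had 1 of 36 higher, a median of -0.19 that ranged from -0.49 to 0.12 with 1 library left out, and summed levels of 184 to 267 RPM and 96.0 to 370 RPM. The minor spliceosome's Rnu11 was at 11.1 to 17.3 RPM and 18.8 to 26.0 RPM, and Rnu12 at 9.26 to 20.3 RPM and 16.4 to 68.1 RPM. Among the 3 snRNAs with the smallest p was Gm24265 (chr5:115489459-115489599, plus strand), at 94.7, 61.6 and 111 RPM, then 286 and 223 RPM, then 255 and 132 RPM (1.28, SE 0.34), together with its near copy Gm24407 beside it.

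7SK, the RNA that holds the transcription elongation factor P-TEFb inactive, was higher in every older library. Rn7sk (chr9:78175303-78175633, minus strand) was at 10.9, 8.28 and 28.4 RPM at 2 months, 69.5 and 149 RPM at 12 months, and 46.4 and 35.1 RPM at 18 months (2.33, SE 0.68). Its lowest older level was above the highest young one. Gm23037 (2.34, SE 0.65), which is 89.2% identical to Rn7sk, and Gm24447 (2.36, SE 0.66), which matched no named RNA, gave the same order of libraries at lower levels. Of 7 tested 7SK rows 5 were higher at an unadjusted p under 0.05, which 5.56% of all RNAs reached in either direction. The median of the 7 was 1.38, or 1.43 without replicate 2 of 12 months and 2.21 without replicate 3 of 2 months. 7SL, the RNA of the signal recognition particle, gave 0 of 6, with Rn7s1 at 1651 to 1873 RPM and 1447 to 4363 RPM (0.46, SE 0.61). Rny1, a Y RNA often seen in EVs, was at 88.0, 71.3 and 112 RPM, then 66.7 and 72.3 RPM, then 71.3 and 74.3 RPM (-0.34, SE 0.33). The Y1 rows gave 0 of 5 with a median of -0.34 (-0.17 without replicate 1 of 12 months and -0.19 without replicate 3 of 2 months), and the vault RNA Vaultrc5 overlapped at 25.5 to 32.8 RPM and 28.1 to 58.8 RPM (0.57, SE 0.39). Among the abundant cytoplasmic RNAs of this group the levels thus overlapped, and the groups stood apart for 7SK.

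The snoRNA difference rested mostly on 1 library. Summed C/D box snoRNAs were at 229, 309 and 345 RPM at 2 months, 276 and 2038 RPM at 12 months, and 475 and 245 RPM at 18 months, and summed H/ACA box snoRNAs at 285, 426 and 238 RPM, then 785 and 2043 RPM, then 880 and 259 RPM. Replicate 2 of 12 months was far above the rest in both, and replicate 2 of 18 months lay within the young range. The medians of 1.62 over 47 C/D and 1.88 over 52 H/ACA rows became 0.06 and 0.48 without the former. Snord87 (chr1:9942463-9942549, minus strand), a C/D box snoRNA, was more even, with 1.59, 1.79 and 3.06 RPM, then 4.71 and 6.57 RPM, then 5.19 and 4.84 RPM (1.34, SE 0.41). Its gene sequence (GENCODE M21) is shown with a C box (TGATGA) and a D box (CTGA), found by searching this strand, in capitals.
Snord87: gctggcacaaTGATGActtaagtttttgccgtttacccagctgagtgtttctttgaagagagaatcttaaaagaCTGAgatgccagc
Snora73a, an H/ACA box snoRNA, was at 51.9, 117 and 27.7 RPM, then 208 and 302 RPM, then 279 and 46.2 RPM (1.51, SE 0.75), with overlap. Of the scaRNAs, which guide modification of snRNAs, Scarna3a was at 0.996, 1.79 and 2.00 RPM, then 6.90 and 10.3 RPM, then 2.6 and 3.6 RPM (1.91, SE 0.62), without overlap at low levels.

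A pair of abundant piRNA rows was lower in older mice. piR-515 was at 19948, 23224 and 15426 RPM at 2 months, 8587 and 7521 RPM at 12 months, and 7567 and 8818 RPM at 18 months (-1.33, SE 0.59), and oocyte_piRNA978 followed it closely at 15967 to 23518 RPM and 7836 to 10690 RPM (-1.12, SE 0.60). All older libraries were below all young ones in both. The values of both rows are alike, and whether they count the same reads was not tested. Other piRNA rows were higher at low levels, such as oocyte_piRNA1218, at 0.162 to 0.705 RPM and 1.14 to 5.34 RPM (3.10, SE 0.66). Over all 532 piRNA rows 11 had older libraries above and 8 below the young ones, the 8 with 6 distinct count profiles. Over all RNAs tested the shares were 3.14% above and 0.827% below. The class median of 0.09 lay between -0.11 and 0.4 with 1 library left out, so the class had no common direction. rRNA showed none either. Its leading row CT010467.1 (chr17:39846353-39848201, minus strand) ranged from 123552 to 238558 RPM and from 114451 to 233130 RPM (0.03, SE 0.97), and Rn5s, the 5S rRNA, from 8161 to 30971 RPM and from 5175 to 32034 RPM (0.17, SE 0.95). For Rn5s the larger libraries of each age were the highest.

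For circRNAs and lncRNAs the shares at an unadjusted p under 0.05 were below that of all RNAs, and the RNAs with the smallest p lay mostly at low levels. Log2 differences ranged from -7.96 to 5.64 for circRNAs and from -8.28 to 3.69 for lncRNAs. mmu_circ_0007671 was at 6.47, 2.11 and 2.70 RPM in young mice, and at 0.337 and 0.289 RPM, then 0 and 0.927 RPM in older ones (-3.07, SE 0.66). mmu_circ_0000942 ran nearly the same way (-3.45, SE 0.81), and both were annotated to Glis3, a transcription factor gene. mmu_circ_0003131 was higher, from 0.487 to 0.705 RPM and 1.23 to 3.57 RPM (1.67, SE 0.41). In these short-read libraries a read assigned to a circRNA can also come from linear RNA of the same exon. A330087D11Rik, the lncRNA that DESeq2 called (log2 difference -4.75, adjusted p = 0.00491), was at 30.6, 0.812 and 92.0 RPM at 2 months and between 0.974 and 3.20 RPM in older mice. It overlapped, because replicate 2 of 2 months was below every older library. Gm39139 (chr8:19163520-19164808, minus strand) was at 1.30 to 2.99 RPM and 0.217 to 0.824 RPM (-2.20, SE 0.46), and Gm35554 at 4.11 to 6.77 RPM and 1.95 to 3.70 RPM (-1.20, SE 0.28).

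EV libraries of 6 and 8 months, set beside these against the same 2 month controls, were in most groups not intermediate. In edgeR 0 of 13060 RNAs were called between 6–8 and 2 months, with 747 at an unadjusted p under 0.05. Class medians at 6–8 months were -0.45 for miRNAs, -0.78 for tRNAs and -0.33 for snRNAs, where those at 12–18 months were 0.71, 0.76 and 0.59. Miscellaneous RNAs, piRNAs and rRNAs were at -0.22, -0.26 and -0.49. The medians of snoRNAs and scaRNAs, 0.40 and 0.65, did lie between 0 and those at 12–18 months, 1.63 and 1.48. The 6–8 month median level was 29.9 RPM for miR-29b-3p, 13.1 RPM for miR-146a-5p and 202 RPM for miR-21a-5p, against 17.8 to 46.0, 11.5 to 30.1 and 203 to 384 RPM at 2 months. The 6–8 month libraries ranged widely, from 22.5 to 102, 8.28 to 49.8 and 135 to 575 RPM. For each of these miRNAs the highest of them thus lay within the range of the older libraries. The red cell list had a median log2 difference of -1.26 there, with miR-451a at a median of 541 RPM. tRNA-Gln-CTG-2-1 was at a median of 2042 RPM, just below the lowest 2 month library, and Rn7sk at 15 RPM.

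The last comparison asked whether the age difference in EVs differed from that in EV-depleted plasma of the same ages, over 14 libraries and 17707 RNAs. The fit had no term for the mouse, so its standard errors treat EV and plasma libraries of the same mice as independent. In edgeR 0 RNAs (0.0%) were called, the smallest adjusted p was 0.366, and 1098 (6.2%) had an unadjusted p under 0.05, of which 620 had a larger log2 difference in EVs. With the mouse as a replicate block edgeR also called 0, with 1751 at that p. DESeq2 without that block gave 953 at that p and called 3, all circRNAs. Of these mmu_circ_0011323 had the larger difference in EVs, by 2.39 on the log2 scale, and mmu_circ_0013175 and mmu_circ_0013176 the smaller. For the miR-29 family the median log2 difference was 1.77 in EVs and 1.2 in plasma, and the difference of differences was 0.72 (SE 0.66) for miR-29b-3p and 0.66 (SE 0.69) for miR-29c-3p. Neither was called, with an adjusted p of 0.85 and 0.858 in edgeR. Inflammation miRNAs had medians of 1.74 in EVs and 0.68 in plasma, with 1.01 (SE 0.75) for miR-146a-5p. The tRNA medians were 0.76 and 0.54, and those of glutamine rows 1.80 and 1.34. The abundant piRNA rows piR-515 and oocyte_piRNA978 had log2 differences of -1.33 and -1.12 in EVs and of -2.97 and -2.92 in plasma. Of 64 H/ACA snoRNA rows 13 had an unadjusted p under 0.05, with Snora73a at 2.21 (SE 0.92). Among the miRNAs named here the largest difference of differences at that p was 1.95 (SE 0.87) for miR-483-5p, followed by 1.36 for miR-19a-3p and for miR-219a-5p and 1.24 for miR-19b-3p. With RPM in place of TMM the median of all RNAs in this comparison moved from 0.08 to -0.24, and the RNAs with a larger difference in EVs at an unadjusted p under 0.05 went from 620 of 1098 to 218 of 946.

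**Figure D4:**
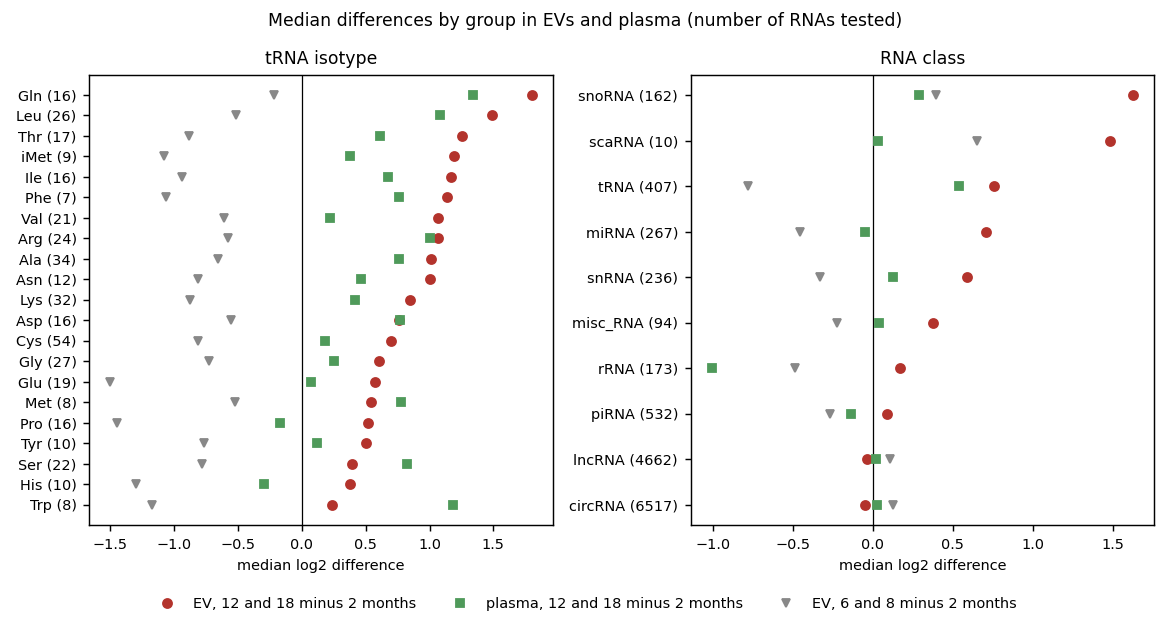
Median log2 difference against 2 months for tRNA isotypes and RNA classes, in EVs of 12–18 months, plasma of 12–18 months and EVs of 6–8 months. EV values of 12–18 months lie mostly above 0 and those of 6–8 months mostly below (tRNAs 0.76 and -0.78), with the glutamine rows at 1.80 in EVs and 1.34 in plasma.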

How the data were processed

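RNA of EV-enriched blood pellets of single mice was taken from 2 tables of the whole series. The first holds raw estimated counts of each RNA as the authors deposited them. The second, also deposited, gives them as a signal in RPM, meaning counts scaled by a single divisor for each library (5938519 to 13849763 in these 7). The submitters' processing notes name mm10 and R 4.0.4. No aligner is given in the sources used here, nor what the divisor counts. Of the RNAs, 33 had values that were not whole, and these were rounded. Groups came from the labels of fraction and age. That libraries of a group are different mice rests on the labels and protocol, and within an age they differed far beyond sampling noise (chi-square over degrees of freedom, 81.6 to 186), so none was counted as a repeat. The labels give a replicate number and, in the column titles, an animal number that differs from it for replicates 2 and 3 of 2 months and replicate 2 of 18 months. Deviations from the age means correlated at 0.433 to 0.543 in all 4 pairs with the same title number, and at -0.208 to 0.523 in the 6 pairs with the same replicate number. Libraries titled 1 were all among the smaller ones and those titled 4 among the larger ones, and title numbers were used as a block in an added alternative. Titles 2 and 3 each held 1 library, which that block took out of the age difference.

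RNAs at 1 RPM or more in at least 3 of the 7 libraries were tested with edgeR 4.0.16 (quasi-likelihood, TMM over all RNAs tested, Benjamini-Hochberg adjustment, R 4.3.3), with 12 and 18 months as 1 group and no covariate. Class shares were tested by exact permutation over 35 splits (scipy 1.17.1). The difference between EVs and plasma was the interaction term in 14 libraries, without a term for the mouse. DESeq2 1.42.0, limma 3.58.1 with pseudocounts of 1 and 0.1, other scalings, filters and left-out libraries were alternatives. Scripts were tested on simulated data. Groups not overlapping were counted on RPM. Depth was 9894179 to 52753818 counts. RNAs without a common name were assigned to families by blastn of GENCODE M21 transcripts at 80% identity or more over 80% of the shorter one.

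RNAs named in the text were the 3 with the smallest p and the 3 with the highest mean RPM of each class, all measured members of the miRNA lists (red cell, liver, muscle, platelet and endothelial, leukocyte and brain markers, inflammation, let-7, miR-29, miR-34, miR-17-92 and miR-106b-25, Dlk1-Dio3, H19 and Igf2, and the study's aging miRNAs), the most abundant member of each tRNA isotype or RNA family, and any past the adjusted threshold. The lower miRNAs, the seed groups and the circRNAs called by DESeq2 were added after their values were seen. The members and lists were chosen with earlier results of these data known. p-values measure the spread between these mice, all of which come from 1 strain and sex.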

Additional observations from a re-analysis of the deposited data

Results flagged for a closer look

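In 8 of 84 RNAs and class shares checked among the 4 older libraries, the gap from one library to the nearest other relative to the group's range exceeded Dixon's 95% critical value for 4 samples, which chance passes in about 1 of 20 groups. Replicate 2 of 12 months was the highest in 5 of the 8, with 842 RPM of Gm24950 (a U2 row), 68.1 RPM of Rnu12, 92.9 RPM of Rnu7, 281 RPM of Rnu3b1 (the C/D box RNA U3) and 1.88 RPM of Gm25923. It was also the library with the most counts. Its part in the snRNA and snoRNA differences was measured by leaving it out, which took the median log2 difference of snRNAs from 0.59 to 0.36 and that of snoRNAs from 1.63 to 0.33. Replicate 1 of 12 months was the highest for A330087D11Rik at 3.20 RPM and for Gm35554 at 3.70 RPM. Replicate 2 of 18 months was the highest for mmu_circ_0000942 at 0.927 RPM, where 2 of the others were at 0.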

How the results depend on the processing

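Of 134 named RNAs with distinct counts, 74 had an unadjusted p under 0.05, a log2 difference over 1 in size or one of the smallest p of their class, and 72 of these kept their direction under every alternative. n-R5s73 turned to -0.35 in the 4 smaller libraries alone, a choice made after seeing the data, and Rnu3b1 to -0.092 without replicate 2 of 12 months (up to 1.76 without another library). Of the other 60, 39 turned under at least 1 alternative, among them miR-451a (down to -0.67), Rn7s1 (-0.52), CT010467.1 (-0.68), Rn5s (-1.17), let-7g-5p (-0.57), let-7b-5p (-0.0097), miR-17-5p (-0.34), Vaultrc5 (-0.017) and tRNA-Pro-TGG-2-1 (-0.062). All alternatives called 0 RNAs between the ages except the next 4. Scaling by total counts called 9 (1 higher, 8 lower), DESeq2 called 1, the title number as a replicate block called 2 (both lower, 775 at an unadjusted p under 0.05), and testing without a filter called 345 of 53156 (259 higher, 86 lower). Those called with total counts included A330087D11Rik (log2 difference -4.47), piR-515 (-1.60), mmu_circ_0000942 (-4.20) and mmu_circ_0007671 (-3.73). In the total count and no filter fits edgeR estimated 1 spread for all RNAs (infinite prior degrees of freedom, 4.49 with the filter and TMM). Of the 345, 90 reached 1 RPM in at most 1 library. For EVs against plasma DESeq2 called 3 and edgeR 0 in every alternative. Leaving out each library called 0, with 446 to 1074 RNAs at an unadjusted p under 0.05. With the labels' replicate number as the replicate block 0 RNAs were called (1009 at an unadjusted p under 0.05). Libraries with the same replicate number did not all deviate together. With the mouse as a replicate block 0 were called for EVs against plasma (1751), where the titles do not tell the plasma of 2 of the young mice apart and these were paired by replicate number. Of 109 class share values 104 kept their direction. The miscellaneous RNA share turned to -0.0337 percentage points without rRNA, to -0.0185 in the 4 smaller libraries and, with 1 library left out, ranged from -0.0428 to 0.084. The cause was not tested. The 3 and 4 mice a group and the difference in depth limit all values here.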

Other observations

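The older ages, taken apart against the same 2 month libraries, gave 0 called RNAs each in edgeR, with 801 at an unadjusted p under 0.05 at 12 months and 730 at 18 months. The median log2 difference was 0.84 at 12 and 0.42 at 18 months for miRNAs, 2.17 and 0.39 for snoRNAs, and 0.68 and 0.8 for tRNAs. Inflammation miRNAs were at 1.55 and 1.86, the miR-29 family at 1.97 and 1.51, the red cell list at 0.35 and -0.41 and the leukocyte list at 1.46 and 0.33. Among tRNA isotypes the leucine rows were at 0.92 and 1.74 and the isoleucine rows at 0.68 and 1.53, while glutamine was at 1.66 and 1.85. The differences between 12 and 18 months were not tested, and each age had 2 mice.

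When no filter on low values was used, the 345 RNAs that edgeR called were unevenly spread over the classes. snoRNAs made up 136 of those higher at 12–18 months and 2 of those lower, and miRNAs 22 and 2. For piRNAs the numbers were 27 and 31, for circRNAs 24 and 31, for lncRNAs 24 and 18, for scaRNAs 8 and 0 and for tRNAs 1 and 0. Of all 345, 217 also passed the filter, where edgeR with TMM over all RNAs tested and no block called none.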
